A study of Gallus gallus with 4 samples.

Results

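Long single-exon transcription units (TUs) of chicken lampbrush oocytes were examined, meaning TUs of 10 to 100 kb whose strongest transcript contained no intron. A TU was 1 gene of the deposited assembly. Each TU was described through the strongest of its transcripts by FPKM, a read count scaled to transcript length and to the total of an assembly run, and it was taken where this transcript had exactly 1 exon and spanned 10000 to 99999 bp on chromosomes 1 to 15 or 17 to 28. The TUs were thus chosen by exon number, span and FPKM of the assembly, and these values are given as a description. Of the 20425 TUs on these 27 chromosomes, 1384 met the rule (forward run 724, reverse run 660), out of 22884 TUs in the whole assembly. They made up 26.9% of the 5138 single-exon TUs on these chromosomes and 13.6% of all TUs of 10 to 100 kb (95% Wilson interval 12.9 to 14.3). The other 8813 TUs of that span had introns and served as the comparison. They were weighted to the spans of the single-exon TUs in 5 bins with edges at 15, 20, 30 and 50 kb.

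The oocytes came from wild-type hens at the lampbrush chromosome (LBC) stage. Strand-specific poly(A) RNA libraries had been made from 2 single nuclei and 2 samples of ooplasm, and reads were pooled with earlier total RNA reads of oocyte nuclei before assembly. The study's methods describe nuclear RNA, and whether ooplasm reads entered the pool is not stated there. No value therefore belongs to 1 library, nucleus and ooplasm could not be compared, the depth per library is unknown, and there is no spread between replicates. No difference below was tested. The intervals cover counting error over TUs alone, and TUs are not replicates.

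Lampbrush chromosomes are extended meiotic chromosomes whose lateral loops are covered by closely packed RNA polymerases with growing transcripts. In newts, such transcripts are known to run past the ends of genes into noncoding sequence. In the assembler's output an intron is a gap bridged by spliced reads, so an exon can hold unspliced nascent RNA as well as an exon of a mature messenger, and a junction needed at least 5 reads. A TU counted as single-exon through its strongest transcript alone, and weaker isoforms of it may have introns. The assembly carries no gene symbols. No annotation of the same genome assembly was used here, so TUs keep their assembly names and no function is assigned to them.

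The long single-exon TUs were weakly covered per exon base. Their median read coverage was 12.7 reads per base (95% interval 11.9 to 13.6), compared with 42.4 in multi-exon TUs (interval 40.4 to 43.8), and the quartiles of the single-exon TUs were 7.42 and 21.1. The corresponding median FPKM was 1.21 (interval 1.13 to 1.28) against 4.00 in span-weighted multi-exon TUs. Both runs gave this picture, with medians of 1.16 against 4.03 (forward) and 1.23 against 3.99 (reverse), and single-exon TUs had the lower median FPKM on each of the 27 chromosomes. The assembler required 3.5 reads per base of single-exon and 1.2 of multi-exon transcripts, which touches this comparison at its lower end. The weakest single-exon TU had 3.54 reads per base, 309 (22.3%) lay under 7 reads per base, and 103 multi-exon TUs (1.17%) lay under the single-exon minimum. Coverage and FPKM both refer to exon bases, and the classes differed in these. The median summed exon length of the strongest transcript was 19.6 kb in single-exon and 6.8 kb in span-weighted multi-exon TUs.

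The 2 classes also differed at the upper end, far above the coverage minima. Class itself rested on FPKM and on the minimum of 5 reads per junction, and the effect of this was not tested. An FPKM of 10 or more was reached by 4 single-exon TUs (0.289%), compared with 2505 multi-exon TUs (28.4%). An FPKM of at least 5 was found in 40 (2.89%) and 3892 (44.2%). None of the 1384 belonged to the top 1% of FPKM on these chromosomes. Median FPKM changed little with span, being 1.03 in single-exon TUs of 10 to 15 kb and 1.38 in those of 50 to 100 kb, against 3.83 and 3.77 in multi-exon TUs of these spans. Across the 1384 TUs Spearman's rho of span and FPKM was 0.106. The share of these TUs in summed exon length exceeded that in number. Their whole span counted as exon, against a median of 31.1% of the span in multi-exon TUs. The single-exon TUs spanned 35.1 Mb, and the multi-exon TUs of 10 to 100 kb spanned 277 Mb. The single-exon TUs were 6.78% of the TUs on these chromosomes. They held 18.8% of the summed exon length, 1.30% of the summed FPKM and 6.42% of FPKM multiplied by exon length.

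**Figure D1:**
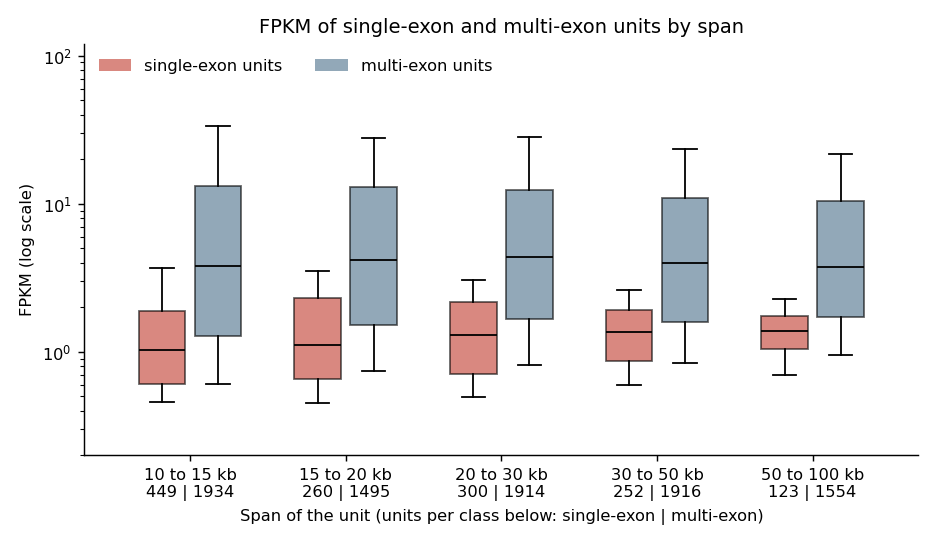
FPKM on a log axis of single-exon TUs (red, left in each pair) and multi-exon TUs (blue) in 5 bins of span, with the median as a line, the quartiles as a box and the 10th and 90th percentiles as whiskers. Median FPKM lay between 1.03 and 1.38 in the single-exon and between 3.77 and 4.34 in the multi-exon bins.

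The 5 strongest of these TUs in each run had FPKM between 7.53 and 24.5. The highest was REV.1213 on chromosome 1 (173718343 to 173751189), 32.8 kb long with 257 reads per base and an FPKM of 24.5. Its nearest upstream TU, REV.1214, lay 16.5 kb away on the same strand with an FPKM of 3.62. REV.10220 on chromosome 28 (5808876 to 5819981) had an FPKM of 17.5, and its 3′ end lay 499 bp from that of its downstream neighbour, the opposite-strand FORW.10351 with an FPKM of 47.8. REV.5597 on chromosome 6 (27067244 to 27078359) followed with an FPKM of 16.1. These 3 TUs of the reverse run stood above every long single-exon TU of the forward run. They were followed in the reverse run by REV.4956 on chromosome 5 (36854968 to 36872621) with 9.46 and REV.9120 on chromosome 21 (794584 to 813043) with 7.53.

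In the forward run, FORW.8001 on chromosome 14 (3954816 to 3976852) led with an FPKM of 11.4 over 22.0 kb. It lay inside FORW.8000, a same-strand TU of 9 exons and 50.3 kb with an FPKM of 4.21, and was thus more strongly covered than the TU around it. FORW.1311 on chromosome 1 (165932627 to 165944529) had an FPKM of 9.91, with 752 kb to its upstream neighbour FORW.1308. FORW.3273 on chromosome 3 (64237178 to 64259279) had 9.71 and lay between 2 same-strand multi-exon TUs, 23.8 kb from FORW.3272 and 15.8 kb from FORW.3277. The last of these 5, FORW.8201 on chromosome 15 (394963 to 404990; FPKM 8.31) and FORW.6654 on chromosome 9 (5041781 to 5053157; FPKM 7.84), overlapped opposite-strand TUs over 100% and 66.0% of their spans.

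The 5 longest single-exon TUs had FPKM between 0.831 and 2.10. FORW.5569 on chromosome 6 (14104439 to 14204124) reached 99.7 kb at an FPKM of 1.16, and FORW.4489 on chromosome 4 (73400544 to 73499952) 99.4 kb at 0.978. REV.7791 on chromosome 14 (386603 to 482542) spanned 95.9 kb at 2.10, FORW.2140 on chromosome 2 (76949942 to 77043133) 93.2 kb at 0.954 and FORW.5082 on chromosome 5 (34634167 to 34726020) 91.9 kb at 0.831. The upstream neighbour lay on the same strand in 4 of the 5, all but FORW.2140, and the downstream neighbour in all 5. FORW.5569 was preceded at 63.8 kb by FORW.5566, a TU of 33 exons with an FPKM of 7.19, and FORW.4489 at 11.9 kb by FORW.4488, with 14 exons and an FPKM of 20.5.

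The span limits cut through a continuous range. The 3 single-exon TUs next above the upper limit were REV.6347 (102.3 kb, FPKM 1.06), FORW.1601 (102.6 kb, FPKM 1.62) and FORW.4802 (102.7 kb, FPKM 0.762), out of 16 of 100 kb or more. At the lower limit FORW.95, REV.1144, FORW.3530, FORW.8201 and REV.147 lay just inside, with FPKM from 0.337 in REV.147 to 8.31 in FORW.8201. FORW.644 (FPKM 1.30), REV.3098 (FPKM 0.794) and FORW.1959 (FPKM 2.99) lay just outside, among 3738 shorter single-exon TUs.

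Single-exon TUs took a larger share of the long TUs on large chromosomes than on small ones. On chromosomes 1 to 5 they were 957 of 5665 TUs of 10 to 100 kb (16.9%, interval 15.9 to 17.9), on chromosomes 6 to 15 341 of 3096 (11.0%, interval 9.96 to 12.2) and on chromosomes 17 to 28 86 of 1436 (5.99%, interval 4.88 to 7.34). The share ranged from 3.19% on chromosome 28 to 20.5% on chromosome 4, where 227 such TUs gave 2.49 per Mb. Their number per Mb did not follow chromosome size throughout, with 1.03 on chromosome 1 and 1.17 on chromosome 20. Multi-exon TUs of 10 to 100 kb numbered 6.27 and 12.3 per Mb on these chromosomes. Chromosome 10 stood low among its neighbours in size, with 14 TUs or 4.93% (interval 2.96 to 8.10), against 11.1% on chromosome 9 and 11.8% on chromosome 11. Over the 27 chromosomes the share had a Spearman's rho of -0.816 with the number of all TUs per Mb, a description of chromosomes from 1 assembly. The TUs of chromosomes 17 to 28 had a median FPKM of 1.68, compared with 1.15 on chromosomes 1 to 5, and span-weighted multi-exon TUs had 5.73 and 3.46.

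**Figure D2:**
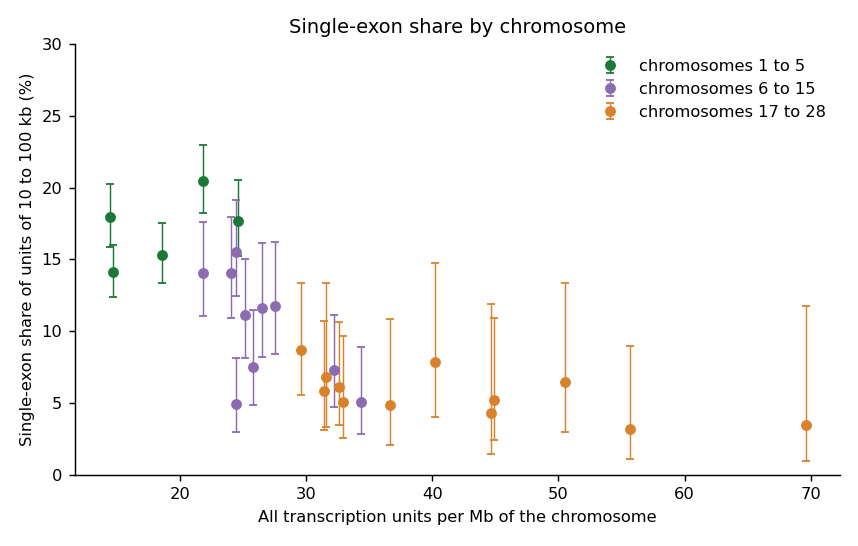
Share of single-exon TUs among all TUs of 10 to 100 kb (percent, with 95% Wilson intervals) against the number of TUs of any kind per Mb, with 1 point per chromosome and colours for chromosomes 1 to 5, 6 to 15 and 17 to 28. Chromosome 4 is highest with 20.5%, and the points of chromosomes 17 to 28 lie between 3.19% and 8.70%.

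Long single-exon TUs stood apart from other TUs. The nearest non-overlapping TU of either strand lay a median of 21.9 kb upstream (interval 20.1 to 25.1), compared with 10.3 kb for span-weighted multi-exon TUs, and 25.1 kb downstream (interval 22.2 to 27.96), compared with 10.8 kb. Single-exon TUs had the wider median upstream gap on 24 of 27 chromosomes and the downstream gap on 20. Chromosomes with fewer than 10 single-exon TUs made up part of the exceptions, since among the 17 with at least 10 the numbers were 16 and 15. A median of 3 other TUs had their midpoint within 100 kb, against 5 around multi-exon TUs. Both gaps were under 20 kb in fewer cases, with 47.2% against 64.7% upstream and 44.3% against 63.8% downstream. TUs with no overlap and no other TU within 20 kb numbered 321 (23.2%, interval 21.0 to 25.5), compared with 907 multi-exon TUs (10.3%, interval 9.67 to 10.9).

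**Figure D3:**
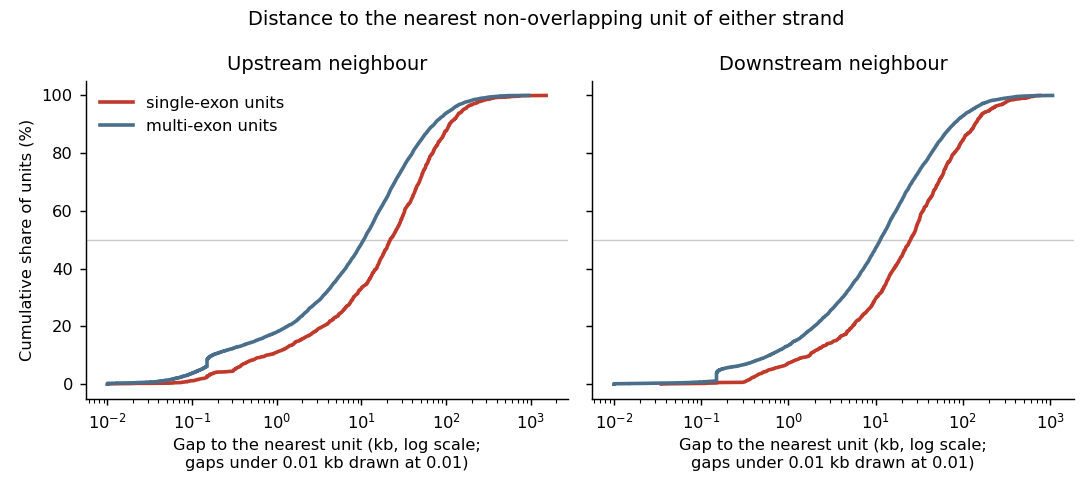
Cumulative share of TUs (percent) by the gap in kb, on a log axis, to the nearest non-overlapping TU upstream (left) and downstream (right), for single-exon TUs (red) and multi-exon TUs (blue). The red curves lie to the right, with medians of 21.9 and 25.1 kb against unweighted medians of 10.7 and 11.3 kb.

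Among the TUs standing alone in this way, the 5 with the highest FPKM ranged from 5.72 to 6.40. FORW.7764 on chromosome 13 (8751887 to 8764092; FPKM 6.40) had REV.7595, an opposite-strand TU with an FPKM of 37.4, 20.6 kb downstream. FORW.4475 on chromosome 4 (72007450 to 72035033; FPKM 6.28) lay 34.2 kb from FORW.4474 and 20.5 kb from FORW.4476, both on its strand and both with 2 exons. FORW.2169 on chromosome 2 (81232034 to 81254686; FPKM 6.04), REV.4587 on chromosome 5 (3953760 to 3974372; FPKM 5.94) and FORW.2563 on chromosome 2 (142591733 to 142606696; FPKM 5.72) completed the 5. FORW.2563 was the single-exon form of a longer gene, as its 4 spliced isoforms reached up to 142672831. It stood alone by its representative transcript only, since the isoforms FORW.2563.4 and FORW.2563.5 reached past its downstream neighbour FORW.2564 (142669875 to 142671602).

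The neighbours of long single-exon TUs were mostly transcribed in the same direction. The nearest upstream TU had the same strand in 1056 of 1384 cases (76.3%, interval 74.0 to 78.5), compared with 64.6% in span-weighted multi-exon TUs, and the nearest downstream TU in 988 (71.4%, interval 68.9 to 73.7), compared with 63.0%. The 2 runs gave 75.7% and 77.0% upstream and 72.8% and 69.8% downstream. Both neighbours shared the strand in 775 cases (56.0%, interval 53.4 to 58.6), compared with 43.4% of multi-exon TUs (interval 42.3 to 44.4), and neither did in 115 (8.31%), compared with 15.0%. The upstream share exceeded that of multi-exon TUs on 21 of 27 chromosomes and the downstream share on 18. Among the 17 chromosomes with at least 10 of these TUs the numbers were 16 and 13.

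The share grew with span in single-exon but little in multi-exon TUs. Upstream it was 69.9% at 10 to 15 kb and 80.5% at 50 to 100 kb, against 64.1% and 66.9% in multi-exon TUs, and downstream it was 64.1% and 78.9%, against 59.1% and 63.8%. The upstream rise in single-exon TUs lay mostly in the step to 15 to 20 kb, where the share was 79.2%. Downstream the share was 68.1% at 15 to 20 kb and 80.2% at 30 to 50 kb. The gap to an opposite-strand neighbour depended on its side. Where the nearest non-overlapping TU was on the opposite strand, the median was 20.3 kb upstream (n = 328) and 40.7 kb downstream (n = 396) of single-exon TUs. Among such nearest neighbours, those facing them head-on thus lay farthest away. Opposite-strand TUs that overlapped a single-exon TU, over its 3′ end in 107 cases, did not enter these medians. In multi-exon TUs these medians were 6.90 and 10.9 kb. The gaps to same-strand neighbours were 22.4 kb upstream and 20.9 kb downstream, against 12.2 and 11.6 kb.

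Activity, taken here as FPKM and so per exon base, moved with these differences. In multi-exon TUs the upstream same-strand share was 82.7% under an FPKM of 0.7 and 59.3% at an FPKM of 2 or more, whereas in single-exon TUs it was 78.1% and 76.7%. Between these bins single-exon TUs had 75.5% against 75.6% (FPKM 0.7 to 1.2) and 74.9% against 74.6% (1.2 to 2). The upstream excess thus lay in the bin at 2 or more. Downstream the shares by rising FPKM were 76.6% against 75.1%, 70.8% against 72.9%, 71.3% against 69.6% and 66.9% against 59.5%. Weighting the multi-exon TUs to the single-exon ones by FPKM as well as by span, an alternative chosen after seeing the data, brought their share to 72.3% upstream and 68.6% downstream. The difference was then 3.98 and 2.82 percentage points, in place of 11.7 and 8.37. The gaps of multi-exon TUs weighted in this way were 12.9 kb upstream and 13.9 kb downstream, so single-exon TUs still had the wider ones. In the bin at an FPKM of 2 or more the classes remained unequal in activity, with medians of 2.89 and 7.72.

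**Figure D4:**
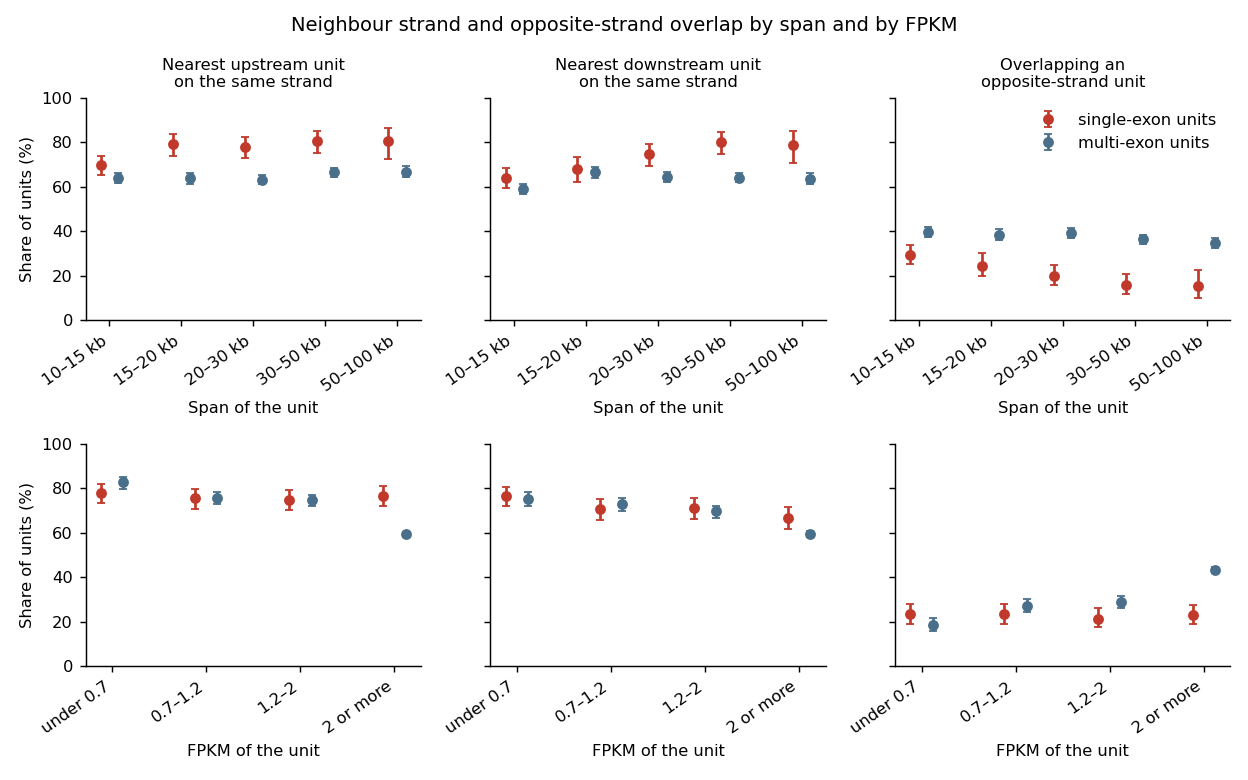
Shares of single-exon TUs (red, left in each pair) and multi-exon TUs (blue) whose nearest upstream or downstream TU is on the same strand, and which overlap an opposite-strand TU, by span (top row) and by FPKM (bottom row), in percent with 95% Wilson intervals. At an FPKM of 2 or more the classes lie apart, with 76.7% against 59.3% for the upstream and 23.0% against 43.4% for the overlap share, whereas under 0.7 the overlap share is the higher one in single-exon TUs (23.4% against 18.7%).

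Neighbours of long single-exon TUs were more often single-exon TUs than the neighbours of multi-exon TUs were. Of all 20425 TUs on these chromosomes, 5138 had 1 exon and 6.78% were among the 1384. The nearest upstream TU had 1 exon in 482 cases (34.8%, interval 32.4 to 37.4) and the nearest downstream TU in 528 (38.2%, interval 35.6 to 40.7), compared with 19.95% and 20.5% for multi-exon TUs. The upstream neighbour was itself one of the 1384 in 231 cases (16.7%), compared with 6.63%. The downstream neighbour was one in 236 cases (17.0%), compared with 6.79%. These shares of multi-exon TUs were not weighted by span, FPKM or chromosome. The FPKM of a neighbour went little with that of the TU beside it. Spearman's rho of FPKM was 0.0611 with same-strand and -0.0563 with opposite-strand upstream neighbours (n = 1056 and 328), and 0.0853 and 0.0996 downstream (n = 988 and 396), as a description across TUs of 1 assembly.

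Close same-strand neighbours were less frequent than around multi-exon TUs. The nearest same-strand TU ended within 5 kb upstream in 222 cases (16.04%, interval 14.2 to 18.1), compared with 22.5%, and began within 5 kb downstream in 214 (15.5%, interval 13.7 to 17.5), compared with 22.1%. A multi-exon TU stood there in 138 upstream and 139 downstream cases, so that single-exon TUs followed a spliced TU about as often as they preceded one. These were 62.2% and 65.0% of the close neighbours, compared with 83.5% and 85.6% around multi-exon TUs. The upstream neighbour was the stronger one in 146 of 222 pairs (65.8%, interval 59.3 to 71.7) and the downstream neighbour in 107 of 214 (interval 43.4 to 56.6). The same counts around multi-exon TUs were 857 of 1977 (43.3%) and 764 of 1943 (39.3%). Among nearest TUs of either strand at any distance, the neighbour was the stronger one in 787 of 1384 cases upstream (56.9%) and 729 downstream (52.7%). Around multi-exon TUs these counts were 3755 of 8811 and 3439 of 8807. Such comparisons between the classes depend on the FPKM of the TUs themselves, which entered the choice of TUs. How much of the difference lay in closeness was not tested.

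Within 5 kb of each other on 1 strand, 81 single-exon TUs formed 39 chains, of which 37 were pairs. The upstream TU had the higher FPKM in 28 of the 42 links (66.7%, interval 51.6 to 79.0). The longest chain lay on chromosome 6 and ran on the reverse strand from REV.5348 (8281581 to 8305272) over REV.5347 (8265352 to 8279938) and REV.5346 (8213978 to 8265028) to REV.5345 (8197220 to 8213646). It covered 108.1 kb, with gaps of 1642, 323 and 331 bp. The FPKM of these TUs in their order of transcription was 0.525, 0.507, 0.390 and 0.385, and their coverage of 5.52, 5.33, 4.10 and 4.05 reads per base lay near the minimum for single-exon transcripts. Read alignments more than 300 bp apart were not joined by the assembler, and the last 2 gaps exceeded this limit by 23 and 31 bp. Upstream of the chain, at 43.4 kb, lay REV.5349, with 8 exons and an FPKM of 4.99.

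A few long single-exon TUs lay inside another TU of their strand. This was the case for 30 (2.17%, interval 1.52 to 3.08), compared with 52 multi-exon TUs (0.590%, interval 0.450 to 0.773), and for 54 (3.90%) against 84 (0.953%) when all transcripts of the surrounding TU were counted. The surrounding TUs had a median span of 71.2 kb. The inner TU had the higher FPKM in 21 of 30 cases, with a median of 1.87 against 1.47 in the TUs around them. Next to FORW.8001, the strongest were FORW.2605 on chromosome 2 (151396122 to 151409110; FPKM 6.46) inside FORW.2604, with 16 exons and an FPKM of 5.90, and FORW.952 on chromosome 1 (110423061 to 110439953; FPKM 5.64) inside FORW.951, with 3 exons and an FPKM of 1.67. Both were named after their values were seen.

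Overlap with transcription of the opposite strand was less frequent in long single-exon TUs. At least 1 bp was shared with an opposite-strand TU in 315 cases (22.8%, interval 20.6 to 25.04), compared with 38.4% of span-weighted multi-exon TUs. The share was lower on 25 of 27 chromosomes, the exceptions being chromosomes 18 and 19 with 8 and 9 of these TUs. In single-exon TUs it was 29.4% at 10 to 15 kb and 15.4% at 50 to 100 kb, although longer TUs have more room for overlap, whereas multi-exon TUs had 39.8% and 34.7%. The overlap share also followed activity in multi-exon TUs, with 18.7% under an FPKM of 0.7 and 43.4% at 2 or more, but was 23.4% and 23.0% in single-exon TUs. Weighted by span and FPKM, multi-exon TUs had 30.1%, and the difference was -7.38 in place of -15.6 percentage points. With the strand listed in the assembly in place of the run, span-weighted multi-exon TUs had 36.4% and the difference was -13.6.

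Where overlap occurred, the partner in most cases reached in from 1 end. An opposite-strand TU extended beyond the 5′ end in 153 cases (48.6% of the 315), beyond the 3′ end in 107 (34.0%), lay wholly inside in 62 (19.7%) and enclosed the single-exon TU in 28 (8.89%). In multi-exon TUs, 45.9%, 38.7%, 31.1% and 4.05% of 3336 overlapped TUs had such a partner. With the main partner, the one sharing the most bases, a median of 2.76 kb was shared, and opposite-strand TUs covered a median of 16.2% of the overlapped single-exon TUs. At least 50% of the span was covered in 75 of the 1384 (5.42%), compared with 5.58% of multi-exon TUs. The main partner had introns in 204 cases (64.8%) and the higher FPKM in 185 (58.7%, interval 53.2 to 64.0), compared with 33.1% for the partners of multi-exon TUs. The main partners had a median FPKM of 1.86 in both classes, whereas the overlapped multi-exon TUs themselves had 6.10. This comparison thus depends on the FPKM of the overlapped TUs, which entered the choice of TUs. FPKM of the 2 strands had a Spearman's rho of -0.156 across the 315 pairs. The overlapped single-exon TUs had a median FPKM of 1.15 (interval 1.02 to 1.36), and those without overlap 1.21 (interval 1.13 to 1.29).

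Both directions of imbalance occurred among the named TUs. REV.1213 shared 15.7 kb with FORW.1350, whose FPKM was 0.562, and opposite-strand TUs covered 85.3% of it. REV.5597 overlapped FORW.5716, with an FPKM of 0.5001 over 3.72 kb. Both single-exon TUs had a far higher FPKM than these partners. Each overlapped 2 opposite-strand TUs, of which the one sharing the most bases is named, and together they covered 63.1% of REV.5597. Among TUs of at least the median FPKM, those wholly covered were led by FORW.8201, inside REV.8037 (23.0 kb, 6 exons, FPKM 1.26), and FORW.4005 on chromosome 4 (27779639 to 27792281; FPKM 4.80), inside REV.3846 (205 kb, 2 exons, FPKM 3.88). FORW.5479 on chromosome 6 (7214588 to 7224707; FPKM 3.82) lay inside REV.5312 (FPKM 5.54), and FORW.639 on chromosome 1 (77203338 to 77213568; FPKM 3.77) inside REV.607 (145.3 kb, FPKM 3.34). FORW.9306 on chromosome 21 (968017 to 978047; FPKM 2.85) lay inside REV.9129, with 14 exons and an FPKM of 11.5.

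Spliced forms were listed for a minority of these TUs. At least 1 further isoform with introns was found for 243 (17.6%, interval 15.6 to 19.7), and the other 1141 (82.4%) had a single transcript. A further isoform with introns was listed for 58.2% of span-weighted multi-exon TUs. The 2 shares are not like measures, since multi-exon TUs had introns by definition and a further isoform was an additional spliced form. The share in single-exon TUs depended on activity, with 5.26% under an FPKM of 0.7 and 25.0% at 2 or more. In multi-exon TUs these bins had 41.8% and 61.4%. TUs with spliced isoforms had a median FPKM of 1.63 (interval 1.54 to 1.80), and those without one of 1.09 (interval 1.03 to 1.18). Of the 391 isoforms, 222 (56.8%) had 2 exons and thus 1 intron. Their summed FPKM was a median of 38.5% of that of the single-exon transcript and exceeded it in 30 of the 243. The sums also counted isoforms of the TU that shared no base of span with the single-exon transcript. Since the representative was the transcript with the highest FPKM, no single isoform could exceed it.

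**Figure D5:**
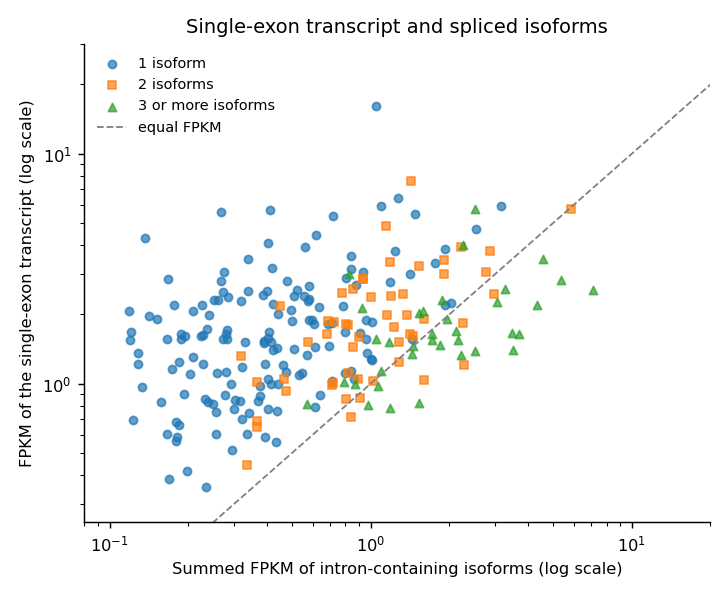
FPKM of the single-exon transcript against the summed FPKM of its intron-containing isoforms, on log axes, for the 243 TUs that had such isoforms, marked by their number. Points below the dashed line of equal FPKM are the 30 TUs whose isoforms together exceeded the single-exon transcript. The sums include isoforms that shared no base of span with it.

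Most spliced isoforms stayed inside the single-exon transcript, and those that left it did so mostly downstream. All isoforms lay inside in 188 of the 243 TUs (77.4%). At least 1 isoform reached beyond the 3′ end in 45 TUs (18.5%, interval 14.1 to 23.9) and beyond the 5′ end in 10 (4.12%, interval 2.25 to 7.41), and in no TU beyond both. Among the isoforms reaching beyond were 29 of the 391 (7.42%) that shared no base of span with the single-exon transcript. Introns were counted in each isoform, so a shared intron could enter more than once. By this count, 398 introns of isoforms inside the single-exon transcript had a median of 1.08 kb. The 669 introns of isoforms reaching beyond it had one of 2.62 kb. Single TUs weigh heavily in the latter, as FORW.9601 had isoforms of 66 and 68 exons over the same 261 kb. Introns inside are also limited by the span of the single-exon transcript, so the 2 medians are not like measures.

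The TUs with the most spliced isoforms had some that reached beyond the single-exon transcript. FORW.7995 on chromosome 14 (3521379 to 3548966; FPKM 2.54) had 6 such isoforms, 1 of them with 45 exons over 356 kb, and their summed FPKM of 7.11 was 280% of its own. FORW.9601 on chromosome 23 (5686307 to 5714384; FPKM 3.47) shared its start with an isoform of 68 exons and 261 kb, and the 5 isoforms summed to 132%. FORW.1589 on chromosome 2 (5417582 to 5465298; FPKM 1.40) had 7 spliced isoforms with up to 14 exons, summing to 251%, and FORW.2709 on chromosome 3 (9943702 to 9955918; FPKM 1.38) also 7, with up to 4 exons and 182%, most of them starting past its 3′ end. In REV.7659 on chromosome 13 (12461135 to 12494697; FPKM 2.59) isoforms of up to 9 exons reached beyond the 5′ end, which is the right one of a reverse-strand TU. All its spliced isoforms summed to 126%. Each TU of this paragraph had isoforms that shared no base of span with its single-exon transcript. The FPKM of those isoforms is part of the percentages.

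High ratios were also found in FORW.4210 on chromosome 4 (48038933 to 48084127), with 225%, FORW.6864 on chromosome 9 (23736954 to 23756529), with 209%, and FORW.8102 on chromosome 14 (9445742 to 9469900), with 197%. All 3 had isoforms that ran on beyond their 3′ end. In FORW.4210 and FORW.6864 the percentages include isoforms that started past this end. These were FORW.4210.4 (FPKM 1.21), FORW.4210.5 (FPKM 1.12) and FORW.6864.4 (FPKM 1.40). The strongest TUs were different. REV.5597 had 1 isoform with 1 intron at 6.55% of its FPKM, and the other 9 of the 5 strongest of each run had none.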

How the data were processed

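The authors trimmed the reads with cutadapt, aligned them with HISAT2 to ASM2420605v2, split them by direction of transcription, removed duplicates, pooled the reads and ran StringTie 2.2.2 once per direction. Per the file headers, the minima were 3.5 reads per base for single-exon and 1.2 for multi-exon transcripts, an isoform fraction of 0.05, 5 reads and an anchor of 10 bp per junction, 1000 bp of length and a maximum gap of 300 bp. The deposited coverage (reads per base), FPKM and TPM are scaled within a run, where an FPKM of 1 was worth 10.6 (forward) and 10.5 (reverse) reads per base, and FPKM of both runs were pooled here. TPM was not used. No column held values of a single sample.

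TUs were compared by their representative transcript, with direction taken from the run. The strand listed in the assembly was opposite to the run in 84 of the 8813 multi-exon TUs (0.953%) and in 0 of the 1384 single-exon TUs. Upstream and downstream refer to the direction of the TU, and gaps were counted to the nearest non-overlapping TU of any span. Gaps and shares of multi-exon TUs were weighted to the span bins of the single-exon TUs where so named. Intervals are 95% Wilson intervals of shares and order-statistic binomial intervals of medians. The computations used Python 3.11.15, pandas 2.3.3 and SciPy 1.17.1, and the search for neighbours and overlaps was tested on simulated data. The TUs, lists and measures were chosen with earlier results of these data known. TUs named are those highest in FPKM, span, isoforms or opposite-strand cover, those at the span limits, those standing alone and the longest chain, with their neighbours. Coordinates are 1-based positions of ASM2420605v2. No genome sequence was used.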

Additional observations from a re-analysis of the deposited data

How the results depend on the processing

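The number of TUs, the ratios of median FPKM and of gaps, the differences in same-strand and overlap shares, and the share of single-exon TUs with spliced isoforms were recomputed under other settings, 3 of them chosen after seeing the data, namely weighting multi-exon TUs by span and FPKM, weighting them by chromosome, and extending neighbours over all their transcripts. None of the 70 recomputed values that compare with multi-exon TUs changed direction. The bins of FPKM were not among these settings, and some directions were reversed in them. Under an FPKM of 0.7 the overlap share was 23.4% against 18.7%, and the upstream same-strand share 78.1% against 82.7%. At 0.7 to 1.2 the same-strand share was 75.5% against 75.6% upstream and 70.8% against 72.9% downstream. Of all 84 recomputed values, 59 stayed within the interval of the reported value or, for the number of TUs, within 1.5 times. The number of TUs was 808 with a minimum FPKM of 1, 427 without chromosomes 1 to 5, 724 (forward run alone) and 660 (reverse run alone). The ratio of median FPKM, single-exon over multi-exon, was 0.302 as reported, 0.394 with the longest transcript as representative, 0.337 with a minimum FPKM of 1 and, by construction, 0.996 when weighted by span and FPKM. The ratio of upstream gaps was 2.13, and 2.89 and 1.69 under the latter 2 settings, and that of downstream gaps was 2.33, and 2.61 with the longest transcript, 3.02 with a minimum FPKM of 1, 2.63 in the reverse run and 1.80 weighted by span and FPKM. The same-strand difference upstream was 14.7 percentage points with a minimum FPKM of 1, 14.5 at 15 to 100 kb, 14.4 without chromosomes 1 to 5 and 3.98 weighted by span and FPKM, and downstream 2.82 under the last. The overlap difference was -19.1 with the longest transcript, -18.1 at 15 to 100 kb, -6.97 where at least 10% of the span had to be covered and -7.38 weighted by span and FPKM. The share with spliced isoforms was 14.9% with the longest transcript, 23.9% with a minimum FPKM of 1 and 15.2% without chromosomes 1 to 5. The causes of these shifts were not tested. No paired analysis was possible because reads were pooled before assembly and no value belongs to 1 library. Transcripts too weak for the assembler's minima do not appear at all, and transcripts of the same locus may have been split at uncovered gaps.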

Other observations

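Long single-exon TUs of the same span were also found on the chromosomes outside the rule. The Z chromosome had 42 of them among 444 TUs of 10 to 100 kb (9.46%, 95% Wilson interval 7.07 to 12.5), with a median FPKM of 1.06 against 4.45 in its multi-exon TUs. Their nearest TU was on the same strand in 21 of the 42 cases upstream and 23 (54.8%) downstream, compared with 56.5% and 50.2% in the multi-exon TUs of Z, and 16.7% overlapped an opposite-strand TU, compared with 20.4%. On W they were 15 of 43 TUs (34.9%, interval 22.4 to 49.8), with a median FPKM of 1.35 against 1.94. Chromosomes 16 and 29 to 38 together held 4 among 356 (1.12%, interval 0.438 to 2.85). None of these differences was tested, and the multi-exon TUs were not weighted by span here.

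A gap of exactly 150 bp was far more frequent around multi-exon TUs than any gap next to it. It was found 8 times among 2768 gaps of long single-exon TUs (0.289%) and 444 times among 17618 gaps of multi-exon TUs (2.52%). Gaps 1 to 5 bp shorter than this were found 2 and 17 times, and gaps 1 to 5 bp longer 2 and 113 times. What sets this length was not tested, and it bears on the shortest gaps in the plot of distances.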
